A study of Rattus norvegicus with 5 samples.

Results

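The genes described here encode enzymes that use or make glutathione, the thioredoxin and peroxidase enzymes, the superoxide dismutases and a few related detoxifying enzymes. They were taken by symbol from the probe sets listed with a single gene. The symbols are Gst with a class letter, Gpx, Prdx, Txn or Sod followed by a digit, and Cat, Gclc, Gclm, Gss, Gsr, Nqo1, Mgst1, Ephx1, Ephx2, Aldh2, Txn and Txnrd1. The rule found 72 of 8740 probe sets, which measure 38 of 4736 genes. Of these, 58 probe sets of 34 genes were bright enough to be tested.

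The RNA came from Müller cells, the main glia of the retina, of male Sprague-Dawley rats. The normal group comprised 3 pools of cells from healthy rats, 1 array each, and each pool combined the retinas of 12 rats. The diabetic group comprised 2 arrays of cells from rats made diabetic with streptozotocin, a toxin that destroys insulin-producing cells, and kept diabetic for 6 months with small insulin doses against catabolism, again with the retinas of 12 rats pooled. The second diabetic array is titled a technical replicate, so both were averaged into 1 pool and the comparison was 3 normal pools against 1 diabetic pool. The labels used here state neither the age of the rats nor how pure the cells were.

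Glutathione is a small peptide thiol. Glutamate-cysteine ligase and glutathione synthetase make it, glutathione peroxidases spend it to reduce peroxides, glutathione reductase regenerates it, and glutathione transferases couple it to reactive compounds. Thioredoxin with its reductase and the peroxiredoxins form a parallel route of peroxide removal, and superoxide dismutases supply the peroxide from superoxide. In the retina Müller cells are a main store of glutathione. Many genes of this group are known targets of the transcription factor Nrf2, encoded by Nfe2l2, which binds the antioxidant response element.

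The core of that element, TGACNNNGC, was searched for on both strands in the 250 bases before the start site of each gene in the RefSeq promoter table (rat build GRCr8). A promoter was supplied for 31 of the 38 genes, and not for Aldh2, Ephx2, Gsr, Gstt1, Gstt2, Prdx6 and Sod3. The core was present in 10 of these 31 genes (32.3%) and in 10.1% of the 33469 promoters of the table. A match of these letters is a description and not a shown binding site. The matches of the 9 tested genes are given below with up to 20 bases on either side, so that the difference of each gene can be set beside its promoter. Each line runs 5′ to 3′ along the gene's strand, and capitals mark the match, which reads in reverse complement where it starts with GC.
Gstp1, chr1:210769738-210769786, minus strand: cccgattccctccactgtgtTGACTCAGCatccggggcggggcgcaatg
Gstm5, chr2:198219636-198219684, plus strand: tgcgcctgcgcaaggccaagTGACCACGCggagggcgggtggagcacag
Gstm5, chr2:198219696-198219744, plus strand: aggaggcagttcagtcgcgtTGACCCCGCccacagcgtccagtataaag
Gstm7, chr2:198260320-198260353, minus strand: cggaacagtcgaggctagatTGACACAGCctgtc
Gsta3, chr9:31154952-31154988, plus strand: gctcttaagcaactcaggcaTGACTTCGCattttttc
Gclm, chr2:213031943-213031991, plus strand: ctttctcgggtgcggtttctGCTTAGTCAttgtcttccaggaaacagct
Prdx1, chr5:135383751-135383799, plus strand: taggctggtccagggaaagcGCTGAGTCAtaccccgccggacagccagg
Sod2, chr1:50050175-50050223, minus strand: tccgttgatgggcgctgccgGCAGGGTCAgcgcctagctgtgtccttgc
Txnrd1, chr7:22755954-22756002, minus strand: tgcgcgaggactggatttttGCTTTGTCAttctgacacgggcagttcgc
Ephx1, chr13:95263146-95263194, minus strand: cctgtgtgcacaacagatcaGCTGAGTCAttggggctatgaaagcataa
The signal difference between the diabetic pool and the normal pools was above 0 for 6 and below 0 for 3 of these 9 genes, with a median of 0.13 on the log2 scale. Among the 18 tested genes whose promoter window lacked the core it was above 0 for 13 and below 0 for 5, with a median of 0.20. These medians are a description. Bases further from the start site were not searched, and the part of the core in the differences was not tested. Gstm1 was among the genes without a match. Its probe sets all separated the groups with quantile normalisation, but none did so with each array scaled to a common median. Its 250 bases before the start site are shown for comparison.
Gstm1, chr2:198343384-198343633, minus strand: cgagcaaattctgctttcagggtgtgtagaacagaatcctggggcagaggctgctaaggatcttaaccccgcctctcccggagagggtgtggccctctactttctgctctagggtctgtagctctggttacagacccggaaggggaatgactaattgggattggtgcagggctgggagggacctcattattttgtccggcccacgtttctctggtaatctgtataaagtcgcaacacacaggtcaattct

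The deposited intensities were not on a common scale, with array medians of 27.9 to 91.3, and were quantile-normalised, floored at 20 (4.32 on the log2 scale) and converted to log2. All signals below are on that scale. Normal array 1 and diabetic array 2 had a higher ratio of 3′ to 5′ actin signal (2.61 and 2.55) than the other 3 arrays (1.46 to 1.76). Normal array 3 and diabetic array 2 shared a processing day and chip lot, and neither was recorded for diabetic array 1. Of the 10 tested Müller cell markers, Glul, Apoe and Clu were the brightest, with log2 signals of 12.66 or more on all 5 arrays. Others were dimmer. Aqp4 had 7.78, 8.40 and 8.52 in the normal pools and 8.40 and 7.11 on the diabetic arrays. Kcnj10 had 5.85, 5.38 and 6.30 against 6.22 and 4.96. The direction of these markers is given further below. With so few arrays every value is imprecise, and in pooled cells fewer cells of a type cannot be told apart from less RNA per cell.

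Most glutathione transferase genes lay above normal in the diabetic pool, Mgst1 and Gstm1 without overlap between the groups under quantile normalisation. With each array scaled to a common median, or without scaling, the groups of Mgst1 and Gstm1 overlapped. The aldehyde dehydrogenase gene Aldh2 lay above normal without overlap under all of these scalings. The mitochondrial peroxiredoxin gene Prdx3 and the epoxide hydrolase gene Ephx2 lay below. No difference passed the test. With limma, 0 of the 58 tested probe sets had an adjusted p under 0.05 (lowest unadjusted p = 0.0677), against 0% of all 6118 tested probe sets, and 0 had an unadjusted p under 0.05, against 1.6% of all (1.19% above and 0.409% below normal). Counting each gene by its brightest tested probe set, a difference above 0 was found for 22 of the 34 genes and one below 0 for 12, beside 49.2% above among all 3623 tested genes. The median log2 difference was 0.13, beside -0.01 over all tested genes, and the range was -0.73 to 0.91. By its brightest probe set and with quantile normalisation no gene therefore differed by 2-fold. The dimmer probe set of Gstm2 did, at 1.06. Without scaling, where the median of all genes was 0.48, the brightest probe sets of some genes did as well, Gsto1 (1.33) and Gstk1 (1.32) among them. For 10 probe sets (17.2%, beside 9.53% of all tested) the lower diabetic array exceeded the highest normal array, and for 3 (5.17%, beside 7.01%) the higher diabetic array was under the lowest normal one. By gene these were 6 above (9.83% of all genes) and 2 below (7.01%). The typical SE of a difference was 0.36 (median over the 34 genes), and for 12 genes the 95% interval of the difference lay within 1 log2 unit of 0.

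**Figure D1:**
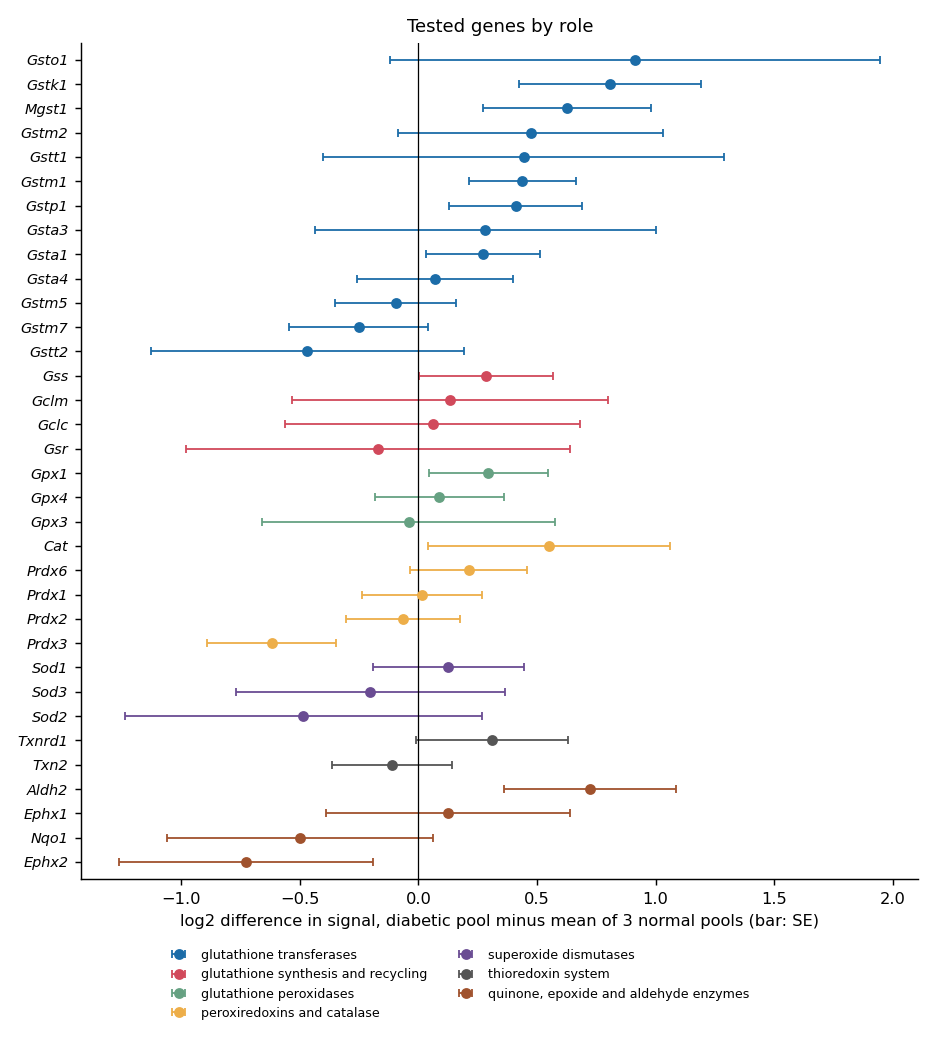
The log2 difference in signal between the diabetic pool and the mean of the 3 normal pools is plotted for the 34 tested genes, each by its brightest probe set, with the SE from limma as a bar and colours for the 7 roles. Of the 13 transferase genes 10 lie right of 0, the values run from -0.73 (Ephx2) to 0.91 (Gsto1), and none passed the test.

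The glutathione transferases were the largest group, with 13 genes on 26 probe sets, all 13 of them tested. Their differences were above 0 for 10 and below 0 for 3 with a median of 0.41 (log2), and 0 passed limma's test after adjustment. Of the 24 tested probe sets, 8 were free of overlap on the upper side and 1 on the lower, beside 9.53% and 7.01% of all tested probe sets. With each array scaled to a common median these were 1 (of Gstm2) and 0, and without scaling 3 and 0. Transferase paralogs are close in sequence. On this chip, 12 of their 26 probe sets end in _s_at and 3 in _f_at, endings that mark probe sets able to detect several transcripts or a whole family, so signals of paralogs may be shared.

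Gstm1, a mu-class transferase that conjugates a wide range of electrophiles, had log2 signals of 9.82, 9.80 and 9.81 in the normal pools and 10.29 and 10.20 on the diabetic arrays on its brightest probe set (J02810mRNA_s_at). The 2 groups did not overlap, and the normal pools spanned 0.02, a span that was 0.63 with each array scaled to a common median. The difference was 0.44 (SE 0.23, 95% interval -0.12 to 1.0), or 1.35 times normal, and it missed the threshold (limma, unadjusted p = 0.104, adjusted p = 0.9999). Its other probe sets gave 8.89, 9.13 and 9.71 against 10.01 and 9.77 (H32189_s_at), and 9.58, 9.37 and 9.84 against 10.28 and 10.10 (X04229cds_s_at). All 3 probe sets therefore had both diabetic arrays above every normal array, with differences of 0.44 to 0.65. Between the 2 arrays of the shared day the same probe sets differed by 0.40, 0.07 and 0.27. With each array scaled to a common median in place of quantile normalisation the 3 differences were 0.39 to 0.64, but the groups overlapped on each of them.

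Gsta1, an alpha-class transferase with peroxidase activity towards lipid hydroperoxides, was measured by 3 probe sets of the family type. The brightest gave 12.20, 12.02 and 12.18 in the normal pools and 12.45 and 12.36 on the diabetic arrays, a difference of 0.27 (SE 0.24). The other 2 differed by 0.33 and 0.35. The groups were free of overlap on 2 of the 3, and on none of the 3 with the median scaling. Of the other alpha-class genes, Gsta4, whose enzyme prefers the lipid peroxidation product 4-hydroxynonenal, differed by 0.07 (SE 0.33) on one probe set and -0.28 on another, and Gsta3 by 0.28 (SE 0.72) on the 1 of its 3 probe sets that was bright enough to test.

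Mgst1, the microsomal transferase that protects membranes from peroxidation, had log2 signals of 8.34, 8.82 and 9.07 in the normal pools and 9.48 and 9.26 on the diabetic arrays. The groups did not overlap, although the normal pools spanned 0.73, more than the difference of 0.63 (SE 0.35). The difference was 0.20 within the shared day. Gstp1, the pi-class transferase, had 8.82, 9.22 and 8.92 against 9.56 and 9.23 on its brighter probe set, so that the lower diabetic array stood only just above the highest normal pool. Its difference was 0.41 (SE 0.28), with 0.26 (SE 0.52) on its dimmer probe set. With the median scaling the arrays of Mgst1 and Gstp1 overlapped, at differences of 0.60 and 0.41.

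Gstk1, the mitochondrial and peroxisomal kappa-class transferase, showed the largest gap between the diabetic arrays among transferases above normal. Its brighter probe set gave 8.03, 8.33 and 7.56 in the normal pools but 9.30 and 8.26 on the diabetic arrays, so that diabetic array 1 stood above all normal pools and diabetic array 2 among them. The difference of 0.81 (SE 0.38) became 0.28 without diabetic array 1 and 1.34 without diabetic array 2. Gstm2, another mu-class gene, lay above normal on both of its probe sets. The dimmer one gave 6.41, 6.49 and 5.46 against 7.49 and 6.87, a difference of 1.06 (SE 0.57) with no overlap under quantile normalisation, median scaling or no scaling. The brighter one gave 7.01, 6.42 and 5.88 against 7.22 and 6.59, a difference of 0.47 (SE 0.56) with overlap.

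The remaining transferases had wide errors or lay near or below normal. Gsto1, the omega-class enzyme that also reduces dehydroascorbate, had the largest difference of all 34 genes, 0.91 (SE 1.03). Its normal pools stood at 4.70, 6.88 and 7.24 and its diabetic arrays at 7.03 and 7.35, so that normal pool 1 stood below all other arrays by over 2 log2 units, and its second probe set differed by 0.04 (SE 0.41). Gstt1 had the same shape, with 5.10 in normal pool 1, 6.95 and 6.93 in the others and 6.90 and 6.64 on the diabetic arrays. Gstm5 differed by -0.09 (SE 0.26) and -0.18 on its 2 probe sets, Gstm7 by -0.25 (SE 0.29) and Gstt2, a theta-class gene, by -0.47 (SE 0.66) and -0.21. The dimmer Gstt2 probe set, at 7.12, 7.195 and 7.16 against 7.02 and 6.87, was the 1 transferase probe set with both diabetic arrays below every normal pool, and its groups overlapped with the median scaling and without scaling. By sign alone the mu-class genes were split, with Gstm1 and Gstm2 above and Gstm5 and Gstm7 below normal. However, Gstm5 and Gstm7 differed by less than their errors. Gstm7 had 9.97, 9.44 and 9.71 in the normal pools and 10.03 and 8.88 on the diabetic arrays. Diabetic array 1 thus stood above every normal pool and diabetic array 2 below. Without any scaling between arrays Gstm5 and Gstm7 also have to be read against a shift of all genes, which is given below.

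**Figure D2:**
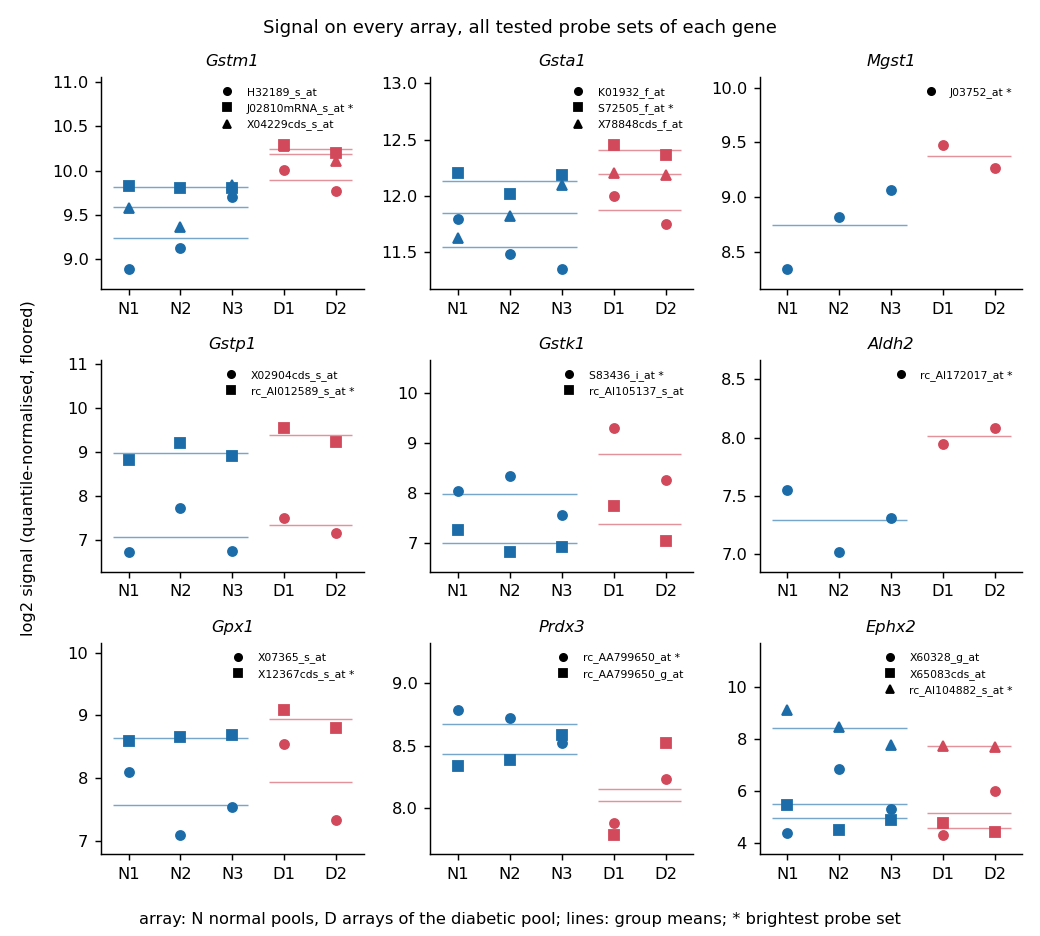
Log2 signal on each of the 5 arrays (N1 to N3, normal pools in blue; D1 and D2, arrays of the diabetic pool in red) is plotted for every tested probe set of 9 genes, with group means as lines and marker shapes for probe sets. All 3 probe sets of Gstm1 have both red points above all blue ones, while for Gstk1 and for the dimmer Gpx1 probe set D1 stands high and D2 lies among the normal pools.

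Genes that make and recycle glutathione were dim, apart from Gss. The differences of the 4 genes, 3 above 0 and 1 below, ran from -0.17 to 0.29, and none passed the test. The 2 subunits of glutamate-cysteine ligase, the rate-limiting enzyme of synthesis, were close to the floor. The catalytic subunit gene Gclc had 5.42, 4.32 and 4.38 in the normal pools and 5.21 and 4.32 on the diabetic arrays, so 1 array of each group was at the floor. The modifier subunit gene Gclm had 5.01, 4.32 and 5.71 against 5.16 and 5.14, a difference of 0.13 (SE 0.66). Neither subunit can be said to differ or to be alike at this signal. Gss, glutathione synthetase, was at 7.93, 7.92 and 7.90 in the normal pools and at 8.64 and 7.76 on the diabetic arrays, which lay on either side of them. The normal pools of Gss spanned 0.03 here, but 0.36 with each array scaled to a common median. Its difference of 0.29 (SE 0.28) became -0.15 without diabetic array 1 and 0.73 without diabetic array 2. Its dimmer probe set differed by 0.62. Gsr, glutathione reductase, was at 4.32, 5.02 and 6.22 against 5.69 and 4.34, and its other 2 probe sets were too dim to be tested.

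Of the 7 glutathione peroxidase genes 3 were tested, namely Gpx1, Gpx3 and Gpx4. Gpx1, the cytosolic selenoenzyme that reduces hydrogen peroxide, had 8.59, 8.65 and 8.68 in the normal pools and 9.08 and 8.79 on the diabetic arrays. The groups did not overlap and the difference was 0.29 (SE 0.25, limma, unadjusted p = 0.290), or 1.23 times normal. With each array scaled to a common median the groups of Gpx1 overlapped, and its normal pools spanned 0.63 in place of 0.09. Its second tested probe set differed by 0.36 (SE 0.46), with 8.09, 7.10 and 7.53 against 8.54 and 7.33, and there the groups did overlap. Gpx4, which reduces lipid hydroperoxides within membranes, was among the brighter probe sets at 10.09, 10.46 and 10.50 against 10.69 and 10.19, with a difference of 0.09 (SE 0.27, 95% interval -0.59 to 0.77). The secreted Gpx3 had 8.78, 7.44 and 7.39 against 8.22 and 7.44, a difference of -0.04 (SE 0.62), in which normal pool 1 stood apart from the other normal pools by more than 1 log2 unit. Without normal array 1 it was 0.42. The probe sets of Gpx5 and Gpx6 were at the floor on all 5 arrays, and those of Gpx2 and Gpx7 on 4 of 5, so no level can be given for these 4 genes.

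The peroxiredoxins, thiol peroxidases that draw on thioredoxin or glutathione, included the member gene with the largest test statistic. Prdx3, the mitochondrial peroxiredoxin, had 8.78, 8.72 and 8.52 in the normal pools and 7.88 and 8.24 on the diabetic arrays. Both diabetic arrays lay below every normal pool, with a difference of -0.62 (SE 0.27, 95% interval -1.30 to 0.06), or 0.651 times normal (limma, unadjusted p = 0.0677, adjusted p = 0.9999). The second probe set of Prdx3 gave 8.34, 8.38 and 8.58 against 7.79 and 8.52, a difference of -0.28 (SE 0.28), and there diabetic array 2 lay among the normal pools. Within the shared day the 2 probe sets differed by only -0.29 and -0.06. The cytosolic Prdx1 and Prdx2 were bright and nearly level. Prdx1 had 9.57, 9.56 and 9.83 against 9.68 and 9.65, and Prdx2 had 9.88, 10.13 and 10.002 against 9.91 and 9.97. Their differences were 0.02 (SE 0.25, 95% interval -0.61 to 0.64) and -0.06 (SE 0.24, 95% interval -0.66 to 0.54). Prdx6, a peroxiredoxin that uses glutathione, differed by 0.21 (SE 0.25), 0.12 and -0.11 on its 3 probe sets. Cat, the peroxisomal catalase, had 7.24, 6.42 and 7.47 against 7.82 and 7.37 on its brightest probe set, a difference of 0.55 (SE 0.51), while its other probe sets differed by 0.05 (SE 0.91) and -0.26 (SE 0.48).

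The 3 superoxide dismutase genes differed by less than their errors. The cytosolic copper-zinc enzyme gene Sod1 had 10.09, 10.37 and 9.72 in the normal pools and 10.35 and 10.01 on the diabetic arrays, a difference of 0.13 (SE 0.32), with -0.14 and -0.28 on its other 2 probe sets. Sod2, the mitochondrial manganese enzyme, ranged over 1.89 log2 units among the normal pools alone (8.004, 6.90 and 6.12) and stood at 6.82 and 6.22 on the diabetic arrays. Its difference of -0.49 (SE 0.75) became 0.01 without normal array 1. The extracellular Sod3 was dim, at 4.93, 4.82 and 5.70 against 5.57 and 4.32.

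In the thioredoxin system, Txnrd1, the cytosolic thioredoxin reductase, had 8.10, 8.12 and 8.56 in the normal pools and 8.47 and 8.67 on the diabetic arrays. Its difference was 0.31 (SE 0.32), and its second probe set gave the same size, 0.31 (SE 0.68). Diabetic array 2 stood above all 3 normal pools and diabetic array 1 above 2 of them. Txn2, the mitochondrial thioredoxin, had 9.99, 9.76 and 9.69 against 9.37 and 10.04, a difference of -0.11 (SE 0.25) with the diabetic arrays on opposite sides of all normal pools.

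Among the 4 remaining enzymes, Aldh2 and Ephx2 lay apart from normal in opposite directions. Aldh2, the mitochondrial dehydrogenase that clears acetaldehyde and lipid aldehydes, had 7.55, 7.02 and 7.31 in the normal pools and 7.95 and 8.09 on the diabetic arrays. The groups did not overlap, and the difference of 0.72 (SE 0.36, 95% interval -0.18 to 1.63), or 1.65 times normal, exceeded the span of the normal pools (0.53). It was 0.78 within the shared day and 0.59 to 0.87 when any single array was left out (limma, unadjusted p = 0.0974). Aldh2 was the only gene, by its brightest probe set, whose groups did not overlap under quantile normalisation, median scaling and no scaling alike. Ephx2, the soluble epoxide hydrolase that also acts on epoxides of fatty acids, had 9.11, 8.45 and 7.77 against 7.73 and 7.71 on its brightest probe set, so that normal pool 3 stood just above both diabetic arrays. Its difference of -0.73 (SE 0.53) was -0.40 without normal array 1, -1.02 without normal array 3 and -0.06 within the shared day. Its dimmer probe sets differed by -0.36 and -0.355. The microsomal hydrolase gene Ephx1 differed by 0.13 (SE 0.52). Nqo1, a quinone reductase often used as a readout of Nrf2, had 7.35, 6.22 and 6.59 against 6.82 and 5.62, with a difference of -0.50 (SE 0.56). Without diabetic array 2 its difference was 0.10, and without diabetic array 1 it was -1.09.

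The 2 arrays of the diabetic pool gave different pictures of these genes. Against the mean of the normal pools, 28 of the 34 genes lay higher on diabetic array 1 but 17 on diabetic array 2. Over all tested genes 49.5% and 54.8% did so. The median difference was 0.33 on array 1 and -0.02 on array 2, while over all tested genes it was -0.01 and 0.06. Diabetic array 1 exceeded diabetic array 2 for 26 of the 34 genes (76.5%), beside 43.7% of all tested genes. The largest gaps were those of Gsr (1.34), Sod3 (1.25), Nqo1 (1.20), Gstm7 (1.16) and Gstk1 (1.04), of which Gsr and Sod3 were near the floor. For 13 genes the arrays fell on opposite sides of the normal mean (43.4% of all tested genes did so). The genes that stood alike on both included Gstm1, with a gap of 0.09, Gsta1 (0.09) and Ephx2 (0.02). Diabetic array 2 was also the array with the higher actin ratio of the pair. No processing day or chip lot was recorded for diabetic array 1, so whether the pair shared them is not known. The parts of RNA integrity and of day and lot in the gap were not tested.

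**Figure D3:**
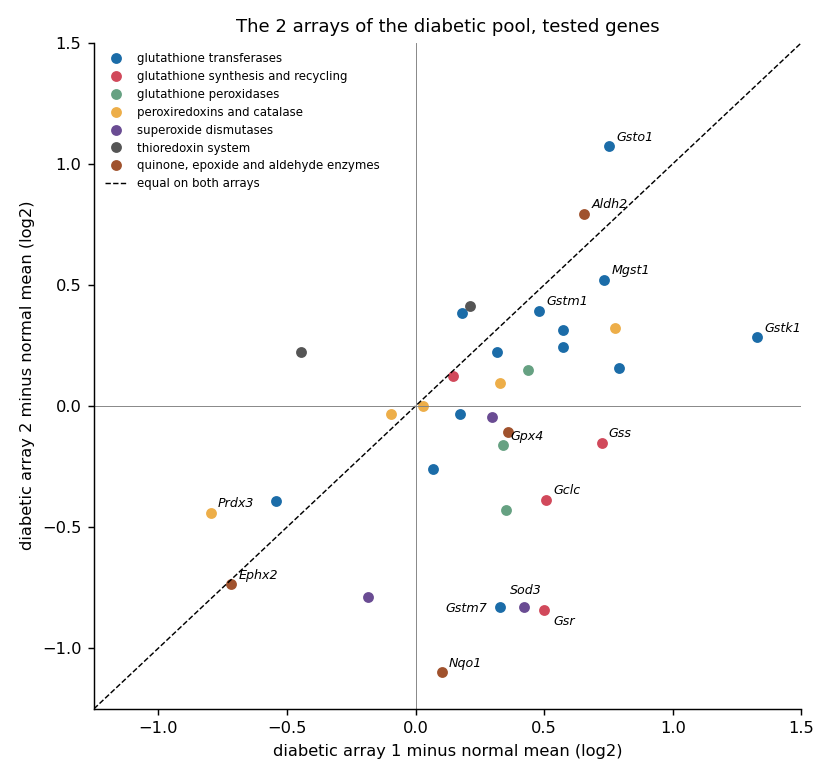
Each of the 34 tested genes is plotted by its log2 difference from the normal mean on diabetic array 1 (x axis) and on diabetic array 2 (y axis), with colours for roles and a dashed line where both arrays are equal. Of the points 26 lie below the dashed line, and Nqo1, Gsr, Sod3 and Gstm7 are right of 0 on array 1 and far below 0 on array 2.

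The median over the 34 genes moved with the arrays used. It was 0.13 over all arrays, 0.01 without diabetic array 1, 0.34 without diabetic array 2, -0.02 without normal array 2 (16 genes above and 18 below 0, with both diabetic arrays kept) and 0.19 without normal array 3. The median of all tested genes was -0.01 over all arrays. In the order of the arrays left out it was 0.065, 0.0067, -0.029 and -0.020. On the arrays whose actin ratio was under 2, which include diabetic array 1 and not array 2, it was 0.33, with 26 genes above and 8 below normal. Between the 2 arrays of the shared day it was -0.05, with 16 of 34 genes above 0 (47.1%, beside 53.1% of all genes). The diabetic array of that pair is array 2. The excess of members above normal was seen on diabetic array 1 and not on diabetic array 2, and it was also absent without normal array 2. With 1 diabetic pool it cannot be told which array is closer to the state of the cells.

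Scaling changed which genes stood apart. With the values left unscaled the median of all genes moved to 0.48, and that of these genes to 0.57, which is 0.09 above it. The probe sets without overlap were then 4 above and 0 below normal, or 6.9% and 0%, beside 8.56% and 0.245% of all 6118. With each array scaled to a common median the genes' median was 0.07 and 2 probe sets lay above all normal arrays (Gstm2 and Aldh2) and 2 below (Prdx3 and Ephx2). These are 3.45% each of the 58 probe sets, beside 8.21% above and 5.64% below among all 6118. The share of members above all normal arrays was thus over the background with quantile normalisation and under it with both other scalings. Under this scaling 37 tested probe sets had a difference above 0 and 21 below, beside 36 and 22 with quantile normalisation. Without scaling these were 54 and 4.

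Where several probe sets measured 1 gene, they mostly pointed the same way. Opposite signs were seen for 4 of 18 such genes (22.2%), namely Cat, Gsta4, Prdx6 and Sod1, beside 448 of 1030 (43.5%) over the whole chip. All probe sets of Gstm1, Gsta1, Gstm2, Gstk1, Gstp1, Gpx1, Gss, Gclm and Txnrd1 that were tested lay above normal, and those of Prdx3, Ephx2, Gstt2 and Gstm5 below. Probe sets of a gene detect the same RNA on the same arrays and are not separate samples. No test of this share was made.

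**Figure D4:**
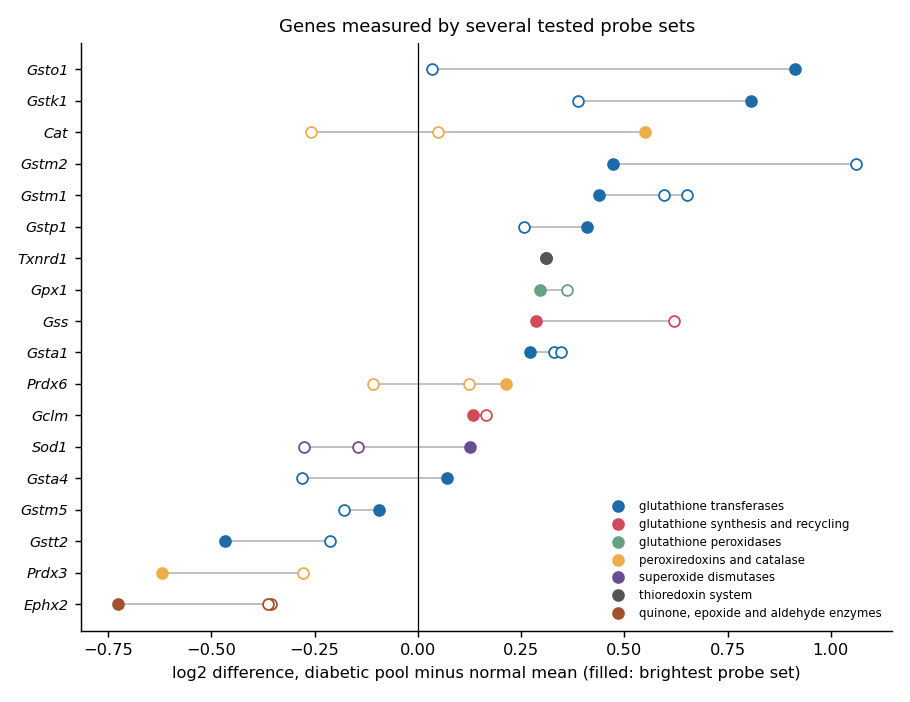
For the 18 genes with more than 1 tested probe set, each point is the log2 difference between the diabetic pool and the normal mean on 1 probe set, filled for the brightest. The points of Gstm1, Gsta1, Gstk1 and Gstp1 all lie right of 0, those of Prdx3 and Ephx2 left of it, and those of Cat spread from -0.26 to 0.55.

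Other genes of the pathway, from a list of regulators, glutathione and thioredoxin partners, NADPH-supplying and aldehyde-clearing enzymes, did not pass the test either. Of 38 tested genes on this list 27 had a difference above 0 (beside 49.2% of all tested genes) and 11 one below. The median difference was 0.15, beside -0.01 over all tested genes. In limma 0 passed the test, and 0 had an unadjusted p under 0.05. Unlike the member median, the median of this list stayed above 0 whichever array was left out (0.066 to 0.18). It was 0.15 without diabetic array 1, 0.18 without normal array 2 and 0.066 within the shared day. The median of all tested genes moved too, and was 0.065, -0.029 and 0.037 in the same order. Nfe2l2, which encodes Nrf2, had 5.96, 6.19 and 6.80 in the normal pools and 7.77 and 7.31 on the diabetic arrays on its brighter probe set. The groups did not overlap and the difference was 1.22 (SE 0.49, limma, unadjusted p = 0.0513, adjusted p = 0.9999), but its other probe set differed by 0.31 (SE 0.44), with 6.14, 6.28 and 6.58 against 6.71 and 6.59. Mgst3, a microsomal transferase, had 8.24, 8.29 and 8.60 against 9.65 and 8.52, so that its difference of 0.71 (SE 0.29, unadjusted p = 0.0525 in limma) rested on diabetic array 1 and was 0.15 without it. Abcc1, a pump that exports glutathione conjugates, differed by 1.37 (SE 0.75), with 5.27, 4.32 and 6.04 against 6.18 and 6.98 and 1 normal array at the floor. Park7, encoding the redox-sensitive protein DJ-1, lay below normal on its brighter probe set (-0.46, SE 0.26) and level on the other (-0.02, SE 0.28). Txnip, the thioredoxin-binding protein induced by glucose, had 6.69, 8.01 and 7.44 against 7.77 and 8.22, a difference of 0.62 (SE 0.55) with overlap. Hmox1, haem oxygenase, had 7.48, 7.65 and 7.35 against 7.77 and 7.93, a difference of 0.36 (SE 0.32) without overlap. Ggt1, the transferase that starts glutathione breakdown outside the cell, was at the floor on all arrays, and Keap1 and Slc7a11 were not analysed here.

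The summed signals of leukocyte and photoreceptor markers were higher on the diabetic arrays, and these enzymes are expressed in many cell types. The summed signal of the 14 tested markers of microglia and other leukocytes was 2123 to 2507 in the normal pools and 2843 to 3118 on the diabetic arrays, with 8 of the 14 genes free of overlap above normal (beside 9.83% of all genes) and none of the 16 on the chip at the floor on all arrays. Of these markers 3 lay below normal, namely Cx3cr1 (-0.41), C1qc (-0.18) and Cd48 (-0.08). The summed signal of 10 photoreceptor markers was 5644 to 12858 against 15858 to 16279. Of the 10, 5 were free of overlap above normal (beside 9.83% of all genes), and only Arr3 of 11 was at the floor. These sums are linear, so the brightest genes weigh most in them. The 4 erythrocyte markers, whose cells are rich in Prdx2, Cat and Gpx1, overlapped at 776 to 1378 against 1119 to 1162. The summed signal of the 10 Müller cell markers, weighted to the bright Glul, Apoe and Clu, overlapped too, at 34380 to 44003 against 38762 to 40260. By gene, 7 of these 10 lay below normal and 3 above, with a median difference of -0.16. Hes1 (-0.82) and Car2 (-0.34) had both diabetic arrays below every normal pool (beside 7.01% of all genes). Clu (0.56) had both above (beside 9.83%). For 16 tested markers of inner retinal neurons (2171 to 3624 against 2757 to 3139) and 9 of endothelial cells and pericytes (3824 to 5353 against 3785 to 4401) the groups overlapped as well. Of pigment epithelium genes Rpe65 was at the floor on all arrays and 1 gene was tested (50.3 to 130 against 201 to 240). The part of these other cells in the differences of Gstm1, Mgst1, Aldh2 and the other genes was not tested.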

How the data were processed

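Total RNA of 5 samples was measured with an Affymetrix chip, RG_U34A per the file headers. The deposited values are a linear intensity for each of 8799 probe sets; how the authors summarised and scaled them is not given in the sources used here. Arrays were quantile-normalised, floored at 20 (the higher of 20 and the 20th percentile) and log2-transformed. The 59 control probe sets and the dimmest 30% of the rest by the mean of the group means were left out. The 6118 others were fitted with limma 3.58.1 in R 4.3.3 (lmFit, eBayes with trend, two-sided, Benjamini-Hochberg over all 6118), with 3 normal pools against 1 diabetic pool, the mean of its 2 arrays. There were 2 residual and 3.54 prior degrees of freedom, so the diabetic pool was assumed to vary like the normal pools. An exact permutation of 1 against 3 cannot go below 0.25.

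Because of the floor, log2 folds of dim genes are understated. The gene-level value is that of the brightest tested probe set with 1 symbol. Symbols came from the platform annotation, and all 72 probe sets matched the RefSeq gene table by Entrez ID with the same symbol. A further 3 probe sets listed with several symbols were not used. Deposited text records of the arrays, per the file headers, served to place arrays into days and chip lots, 1 record being nearly empty; they hold no measured score or other value. Members, lists and tests were chosen with earlier results of these data known. All members are accounted for; values are given for the 12 genes with the largest moderated statistic, for a set of core enzymes and for 6 other pathway genes. Probe sets shown for their pattern were chosen after their values were seen. On simulated data of 6118 probe sets the limma step, 3 pools against 1, recovered 23.6% of the changes of 8-fold, 3.5% of those of 4-fold and 0% of those of 2-fold. Alternatives were other scalings, floors, filters and priors, the arrays as separate samples and each array left out. Figures were drawn with matplotlib 3.10.9.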

Additional observations from a re-analysis of the deposited data

How the results depend on the processing

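No paired analysis was possible because the labels of the groups share only 1 replicate number, which marks a biological replicate in one and a technical replicate in the other. Of the 30 genes named by rule, 15 kept their sign under every alternative. These were Aldh2, Ephx2, Gpx1, Gsta1, Gstk1, Gstm1, Gstp1, Mgst1, Prdx3, Prdx6, Txnrd1, Abcc1, Hmox1, Nfe2l2 and Txnip. Many of the 30 were named for a large moderated statistic on the same arrays, which favours a stable sign. The share over all tested genes was not counted. The number of member probe sets past an adjusted p of 0.05 in limma stayed at 0 under every alternative but one. Without the filter on dim probe sets it was 1, a probe set of Nqo1 at the floor on all arrays but diabetic array 1, where 170 of 8740 probe sets were called, many of them without spread at the floor. The number of member probe sets at an unadjusted p under 0.05 in limma was 0 as reported and 3 with the floor at 50. It was 6 without the filter, 6 with the arrays as separate samples and 0 or 1 without single normal arrays. Over all tested probe sets the number was 98 as reported and 337 of 6118 with the floor at 50. It was 390 of 8740 without the filter, 246 of 6118 as separate samples and 54 to 285 without single normal arrays. With the floor at 50, without the filter and as separate samples the rise was thus not confined to the members. The genes' median was 0.57 unscaled, 0.33 with a low actin ratio, -0.048 within the shared day and -0.015 to 0.34 with single arrays left out. The median of other pathway genes was 0.65 unscaled. The number of genes without overlap, 8 as reported, was 3 unscaled, 3 with median scaling and 9 to 16 with fewer arrays, which overlap less by construction. The matching share over all tested genes was not counted for these alternatives, so no excess or lack among the members can be read from them. Values with the opposite sign were as follows. Unscaled, Gpx3 was 0.55, Sod2 0.13, Sod3 0.14, Prdx2 0.44, Gsr 0.089, Nqo1 0.068 and Park7 0.048. With median scaling Gpx3 was 0.027. Where the actin ratio was low Gpx3 was 0.84, Sod2 0.33, Sod3 0.33, Prdx1 -0.020, Gsr 0.078 and Nqo1 0.44. Within the shared day Cat was -0.10, Gss -0.14, Gpx3 0.050, Gpx4 -0.31, Sod2 0.10, Prdx1 -0.18, Gclc -0.062, Gclm -0.57 and Mgst3 -0.079. With the mean of its probe sets Sod1 was -0.10, with the floor at 50 Gclm was -0.023 and with the floor at 10 Gsr was 0.12. With single arrays left out the ranges were -0.15 to 0.73 for Gss, -0.43 to 0.42 for Gpx3, -0.16 to 0.32 for Gpx4, -0.051 to 0.31 for Sod1, -0.89 to 0.013 for Sod2 and -0.82 to 0.43 for Sod3. They were -0.029 to 0.11 for Prdx1, -0.22 to 0.47 for Gclc, -0.22 to 0.39 for Gclm, -0.84 to 0.47 for Gsr and -1.09 to 0.10 for Nqo1. The cause of these changes was not tested.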
